A study of Anolis sagrei with 10 samples.

Results

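In brown anole (Anolis sagrei, a lizard) embryos, 57 named genes outside the HOX, TBX, PITX and ISL families had a higher level in every hindlimb bud library than in any forelimb bud library. They were chosen by that measurement. A member has a gene symbol in the authors' deposited table, a mean of at least 1 CPM (the count scaled to a fixed library total) over the 10 libraries, and a lowest hindlimb value above its highest forelimb value. Symbols beginning with HOX, TBX, PITX, ISL or LOC were left out, which removed 7 genes that met the other conditions, ISL1, HOXC9, HOXC10, HOXC11, HOXB9, PITX1 and TBX4. The 57 members are 0.603% of the 9450 named genes that passed the level and name conditions, and the count tables list 25920 identifiers in all. The same rule turned round, with forelimb above hindlimb, also selected 57 genes, again 0.603%. Because limb type chose the members, their limb difference is a description here and carries no test.

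The samples were wild-type embryos at stage 7. RNA from pairs of forelimb or hindlimb buds was sequenced as 5 forelimb and 5 hindlimb libraries, numbered 1 to 5 in each limb. The counts rest on gene models of another species, since all 25920 identifiers have the Ensembl prefix ENSACAG, that of the green anole, Anolis carolinensis. The effect of sequence differences between both anoles on the levels was not tested. The labels do not say how many embryos a library holds, their sex, or whether equal numbers mark the same embryos, so the spread between libraries may be partly technical. A whole bud holds mesenchyme, ectoderm, vessels, blood, entering muscle precursors and nerve, and in such bulk samples fewer cells of a type and less RNA per cell cannot be told apart.

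The buds of the fore and hind limbs grow by the same signals, but transcription factors set their type. In mouse and chick, TBX5 marks the forelimb, while PITX1, TBX4, ISL1 and HOXC genes of high paralogue number mark the hindlimb. Beneath these regulators lie effector genes, such as secreted signals, receptors, adhesion molecules and cytoskeletal proteins. The members were grouped by role by hand, after their values were seen.

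Total counts per library ran from 41808148 to 54998469, and each member had counts in all 10 libraries. The lowest count of a member was 8 in a forelimb library and 55 in a hindlimb library. Libraries with replicate number 1 stood apart in a few genes that are not members. Of genes at 2 CPM or more in a single library and at least 5 times the highest of the other 9, 20 were in forelimb replicate 1, 9 in hindlimb replicate 1, 1 in forelimb replicate 5 and 0 in the other 7 libraries. None of these 30 genes was a member, and the rule bars any gene that is highest in a forelimb library. The median ratio of hindlimb to forelimb mean over the members was 1.45, and 1.43 without both libraries of number 1.

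Most members differed modestly between the limbs. The hindlimb mean was at least 2 times the forelimb mean in 11 members, 1.5 to 2 times in 14, 1.2 to 1.5 times in 22 and below 1.2 times in 10. Ratios ran from 1.07 for ARF1 to 7.14 for NRSN1. The gap between the groups was narrower still. The lowest hindlimb value exceeded the highest forelimb value by less than 10% in 34 members, and by 1.5 times or more in 6, which were NRSN1, LHX8, NPFFR2, ALKAL2, ZPLD1 and CNGB3.

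**Figure D1:**
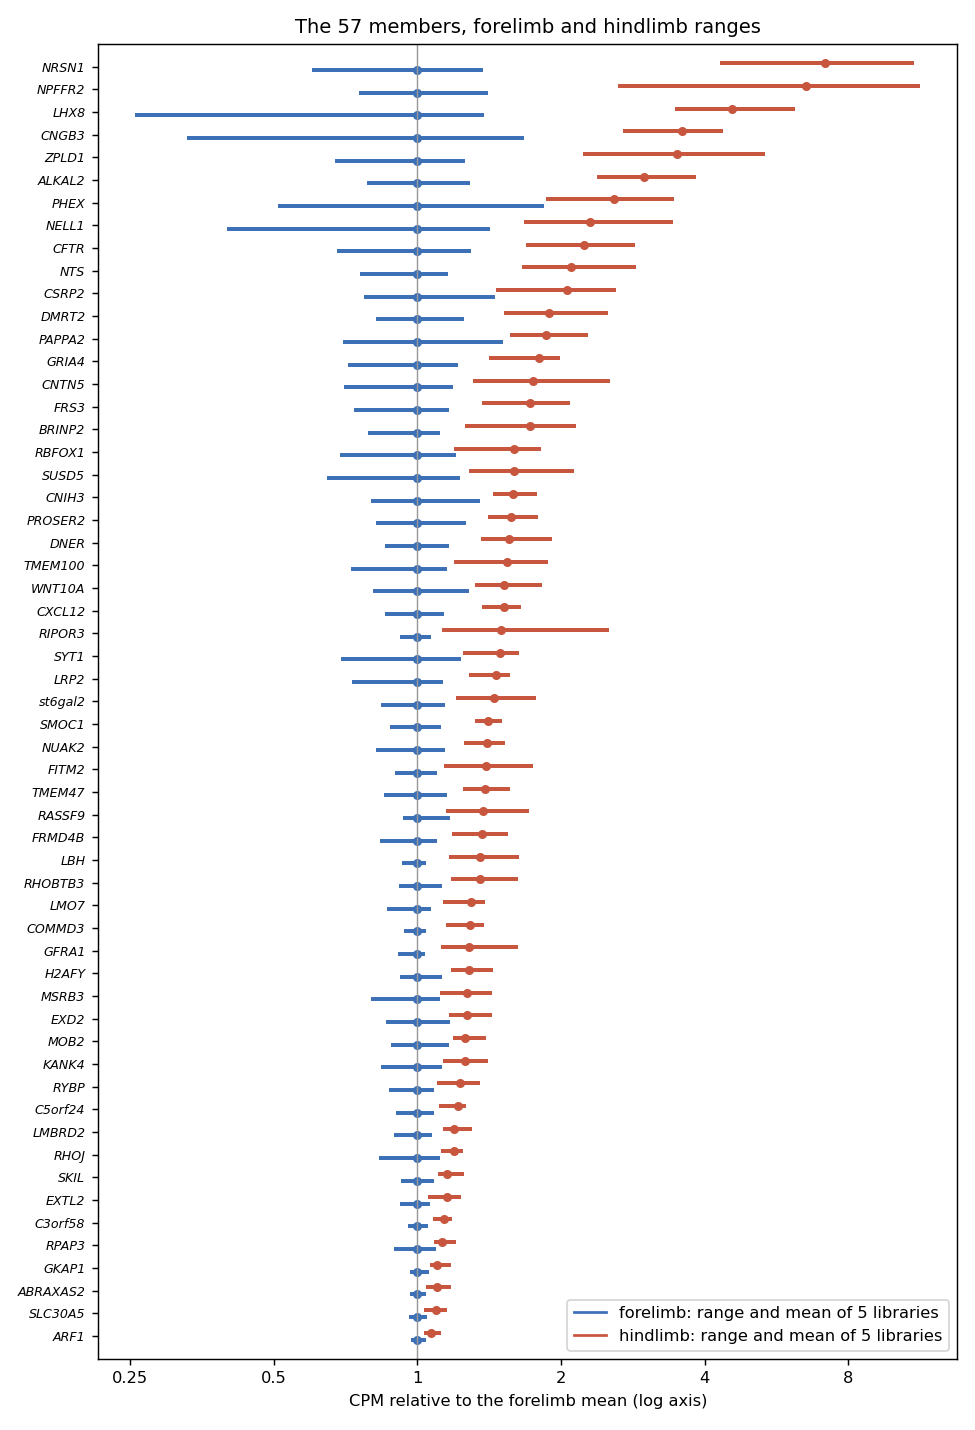
CPM of the 57 members divided by the member's forelimb mean, on a log axis, with a bar from the lowest to the highest of 5 libraries and a point at the mean (blue, forelimb; red, hindlimb). The red and blue bars of a member do not overlap, which is the rule that chose it. The ratio of means falls from 7.14 at the top to 1.07 at the bottom.

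Just inside the rule stood RASSF9, with a lowest hindlimb value of 8.71 CPM and a highest forelimb value of 8.69 CPM. SLC30A5 (203 against 202 CPM), RPAP3 (101 against 100.3 CPM), RBFOX1 (5.05 against 5.01 CPM) and ARF1 (329 against 325 CPM) followed. Just outside it stood TES, at 181.18 CPM in its lowest hindlimb library and 181.23 CPM in its highest forelimb library, and then EMP3 (342 against 343 CPM), AP1S2 (35.9 against 36.1 CPM), COL8A1 (2.66 against 2.68 CPM) and BAG5 (23.7 against 23.9 CPM). For these 10 genes the distance from the edge was smaller than the spread within a limb. With the TMM scaling of edgeR, which adjusts library totals for composition, the rule selected 65 genes, 51 of them members. The 6 members it dropped were CSRP2, EXTL2, RASSF9, ABRAXAS2, RHOJ and SLC30A5.

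Among transcription and chromatin factors, LHX8 differed most. LHX8 encodes a LIM-homeodomain factor known in mouse for forebrain cholinergic neurons, palate, tooth and oocytes. It was at 0.611, 2.19, 3.08, 2.71 and 3.22 CPM in forelimb replicates 1 to 5 and at 8.25, 8.28, 10.1, 12.8 and 14.5 CPM in hindlimb replicates 1 to 5. Forelimb replicate 1 was the lowest of all, and the lowest hindlimb library was 2.56 times the highest forelimb library. Mean CPM was 2.36 ± 1.06 for forelimb and 10.8 ± 2.79 for hindlimb (SD, n = 5 each). The fitted log2 fold change was 2.21 ± 0.37 (SE), with hindlimb over forelimb as for all fold changes fitted here.

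DMRT2 encodes a DM-domain factor that acts in the dermomyotome of mouse somites. Its 5 forelimb values were 15.3, 18.5, 14.9, 12.3 and 13.5 CPM and its 5 hindlimb values 37.002, 31.7, 22.8, 23.4 and 25.7 CPM, in the order of the replicate numbers. Numbers 1 and 2 were the highest in both limbs. The log2 fold change was 0.93 ± 0.16 (SE).

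The other members of this kind differed less. LBH, a transcriptional cofactor named for limb bud and heart, was at 139.8, 127, 132, 141 and 140.2 CPM in forelimb and 214, 160.1, 164, 161 and 219.6 CPM in hindlimb. Its hindlimb replicates 1 and 5 were high and the other 3 lay close together. H2AFY, which encodes the histone variant macroH2A, was at 146, 129, 124, 133 and 122 CPM in forelimb and 155, 168, 167, 187 and 163 CPM in hindlimb. The highest forelimb library, replicate 1, lay near the lowest hindlimb library, also replicate 1. RYBP, a subunit of Polycomb repressive complexes, had means of 48.95 ± 4.001 and 60.3 ± 4.88 CPM, and SKIL, a corepressor of SMAD proteins in TGF-beta signalling, 78.97 ± 4.69 and 91.3 ± 3.74 CPM. RBFOX1, a splicing regulator of neurons and muscle, was at 2.92 to 5.01 CPM in forelimb and 5.05 to 7.52 CPM in hindlimb. RPAP3, a cofactor in the assembly of RNA polymerase II, was at 84.4, 100.3, 96.5, 97.5 and 83.3 CPM in forelimb and 102, 101, 105, 110.3 and 102 CPM in hindlimb. Its forelimb replicates 1 and 5 were low and the other 3 close to the hindlimb values. The 8 members of this group had ratios from 1.12 to 4.56, with a median of 1.32.

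Secreted signals and their modifiers formed a group of 7 with ratios from 1.41 to 2.99. ALKAL2 encodes a ligand of the receptor tyrosine kinases ALK and LTK. It was at 3.902, 4.73, 3.46, 4.18 and 5.57 CPM in the 5 forelimb libraries and at 10.500, 11.1, 10.9, 16.1 and 16.6 CPM in the 5 hindlimb libraries. Hindlimb replicates 4 and 5 stood above the other 3, and the lowest hindlimb library was 1.89 times the highest forelimb library. The log2 fold change was 1.60 ± 0.22 (SE).

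NTS encodes the precursor of neurotensin, a peptide of gut and brain. Its values were 33.8, 44.6, 42.6, 50.5 and 49.1 CPM in forelimb and 73.6, 98.8, 87.2, 125 and 78.9 CPM in hindlimb. Replicate 4 was the highest and replicate 1 the lowest in both limbs. The means were 44.1 ± 6.64 and 92.8 ± 20.5 CPM (SD, n = 5 each), with a log2 fold change of 1.10 ± 0.17 (SE).

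NELL1, a secreted protein that promotes bone-forming differentiation, was low in both limbs, at 0.705, 1.43, 2.47, 1.71 and 2.46 CPM in forelimb and 2.97, 4.59, 2.98, 5.96 and 3.67 CPM in hindlimb. Within same-numbered pairs its ratio ran from 1.21 in number 3 to 4.21 in number 1. Its log2 fold change was 1.23 ± 0.36 (SE).

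PAPPA2, a protease that cuts insulin-like growth factor binding proteins, averaged 1.68 ± 0.537 CPM in forelimb buds and 3.13 ± 0.528 CPM in hindlimb buds. SMOC1, a calcium-binding matrix protein whose loss in mouse and human disturbs limb and eye development, ran from 27.8 to 34.9 CPM in forelimb and from 41.97 to 46.8 CPM in hindlimb. Its hindlimb libraries were close together, with a standard deviation of 1.79 CPM. WNT10A, a WNT ligand of skin appendages and teeth, ran from 4.44 to 6.91 CPM and from 7.27 to 9.82 CPM. CXCL12, a chemokine that guides migrating cells through CXCR4, ran from 5.48 to 7.15 CPM and from 8.75 to 10.4 CPM.

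**Figure D2:**
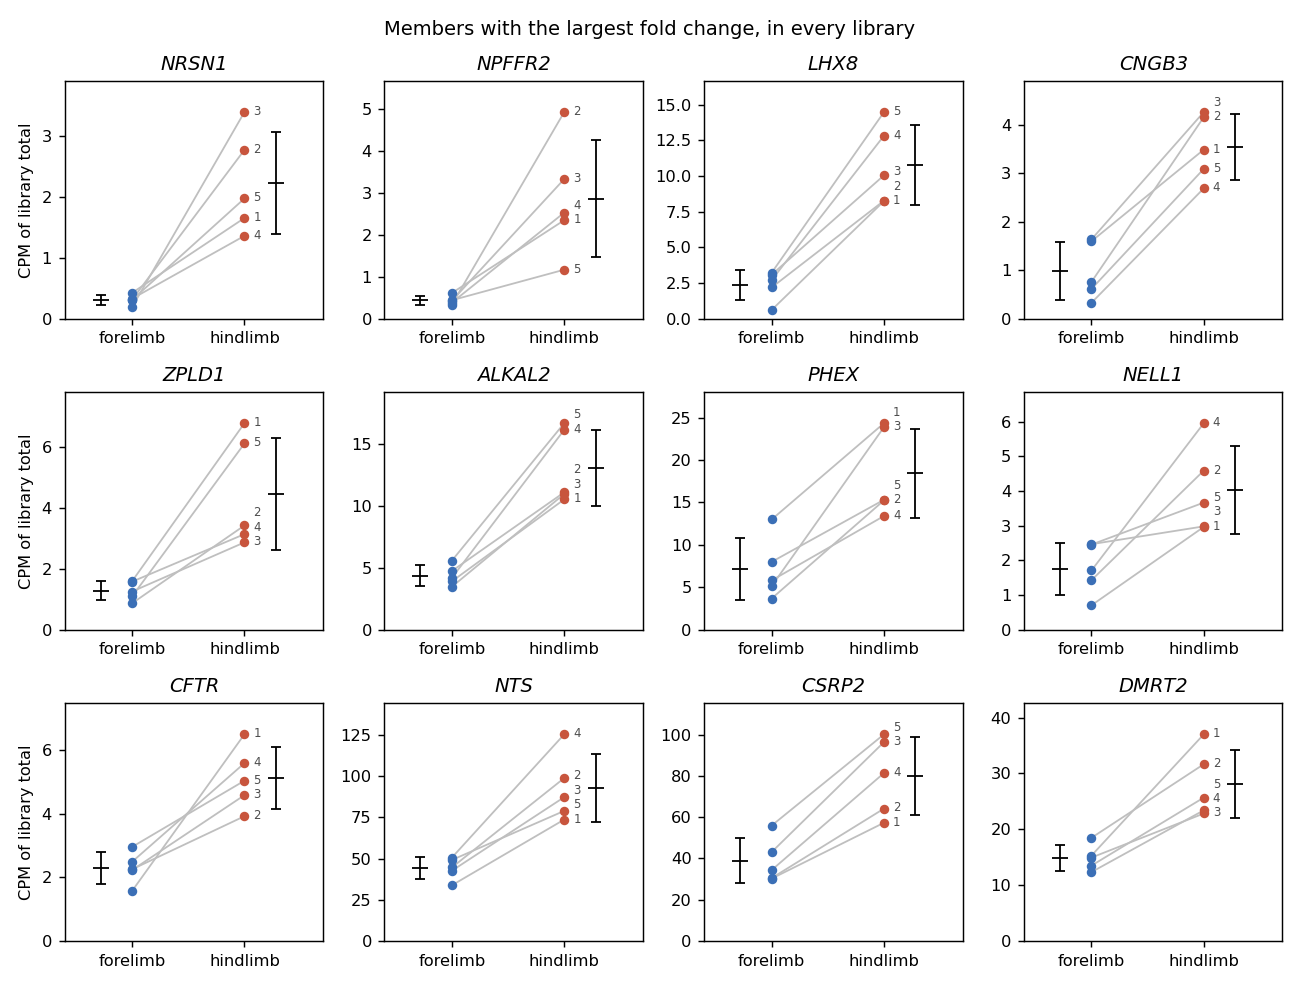
CPM of the library total in each library for the 12 members with the largest fitted fold change, on linear axes from 0. Grey lines join forelimb (blue) and hindlimb (red) libraries of the same replicate number, printed at right, and black bars give mean ± SD of 5 libraries. Each hindlimb point lies above each forelimb point by the rule, with PHEX and CSRP2 the closest to overlap.

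Receptors, channels and transporters made up 9 members. NPFFR2, a G protein-coupled receptor for neuropeptide FF, was at low counts in forelimb. Its forelimb values were 0.611, 0.335, 0.427, 0.382 and 0.439 CPM, which are 15 to 26 counts per library. Its hindlimb values were 2.34, 4.92, 3.32, 2.53 and 1.17 CPM, or 55 to 208 counts. The hindlimb libraries varied the most of any member, with replicate 2 at 4.22 times replicate 5, and the log2 fold change was 2.71 ± 0.39 (SE).

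CNGB3, a beta subunit of the cyclic nucleotide-gated channel of cone photoreceptors, was at 1.598, 0.759, 1.64, 0.327 and 0.614 CPM in forelimb and 3.49, 4.16, 4.27, 2.69 and 3.09 CPM in hindlimb. Replicates 1 and 3 were high in forelimb and replicate 4 was lowest in both limbs. The log2 fold change was 1.87 ± 0.40 (SE). CFTR, a chloride channel of epithelia, was at 1.57, 2.26, 2.23, 2.49 and 2.96 CPM in forelimb and 6.51, 3.93, 4.59, 5.598 and 5.04 CPM in hindlimb. Its fitted change was 1.17 ± 0.24 (SE) on the log2 scale. Replicate 1 had the lowest forelimb value and the highest hindlimb value, and without both libraries of number 1 the log2 fold change was 0.97.

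GRIA4, an AMPA-type glutamate receptor subunit, and CNIH3, an auxiliary protein of AMPA receptors, were both members. GRIA4 ran from 3.95 to 6.58 CPM in forelimb and from 7.798 to 10.8 CPM in hindlimb. CNIH3 ran from 9.26 to 15.4 CPM and from 16.6 to 20.2 CPM. GFRA1, the coreceptor that binds GDNF and signals with RET, had means of 40.5 ± 1.88 and 52.04 ± 7.82 CPM, with hindlimb replicate 5 at 65.1 CPM above the other 4. DNER, a transmembrane protein with EGF repeats described as a Notch ligand in mouse neurons, had means of 12.7 ± 1.63 and 19.7 ± 2.55 CPM. LRP2, the endocytic receptor megalin, had means of 5.65 ± 0.873 and 8.27 ± 0.589 CPM. The zinc transporter SLC30A5 barely parted the limbs, at 202, 202, 189, 190.1 and 189.8 CPM in forelimb and 203, 222, 211, 205 and 222 CPM in hindlimb. Forelimb replicates 1 and 2 came close to hindlimb replicates 1 and 4, and the log2 fold change was 0.15 ± 0.07 (SE).

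The neurite and synapse group, made by hand, held 4 members. Others with roles in nerve cells, such as NTS, GRIA4, CNIH3, DNER and RBFOX1, were placed in other groups. First of the 4 was NRSN1, a small membrane protein of neuronal vesicles, which had the largest ratio of all members. Its forelimb libraries held 8 to 18 counts, at 0.423, 0.313, 0.1898, 0.327 and 0.307 CPM, and its hindlimb libraries 57 to 158 counts, at 1.65, 2.77, 3.39, 1.36 and 1.97 CPM. Replicate 3 was lowest in forelimb and highest in hindlimb, so that ratios within numbered pairs ran from 3.901 to 17.9. The log2 fold change was 2.84 ± 0.38 (SE). CNTN5, a contactin adhesion molecule of axons, ran from 5.77 to 9.601 CPM in forelimb and from 10.8 to 20.5 CPM in hindlimb. BRINP2, a protein of developing neurons, ran from 9.2003 to 12.8 CPM and from 14.7 to 24.6 CPM. SYT1, the calcium sensor of synaptic vesicles, ran from 7.62 to 13.3 CPM and from 13.7 to 17.6 CPM.

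Nerve could be part of a bud sample, so a list of 20 neurite and synapse genes was examined beside these members. Of the 13 that could be tested, 1 was called higher in hindlimb and 0 in forelimb by edgeR, and that gene is NRSN1 itself, against 0.0962% of all 15595 genes tested called higher in hindlimb. The list's median log2 fold change was 0.09, and over all tested genes it was 0.01. Its summed level was 458 to 692 CPM in forelimb and 585 to 855 CPM in hindlimb libraries, so the ranges overlapped. Most of this sum came from 1 gene, UCHL1, which averaged 525 CPM in forelimb buds and 618 CPM in hindlimb buds, with overlapping limbs. The sum also held the members NRSN1 and SYT1. Markers of peripheral glia and neural crest summed to 67.7 to 87.3 CPM in forelimb and 42.2 to 87.2 CPM in hindlimb. Of 6 tested, 0 were called, against 0.199% of all genes tested called in either direction, so the count says little. The part of nerve tissue in the members' values was not tested.

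Cytoskeletal, adhesion and intracellular signalling proteins were the largest group, with 13 members and ratios from 1.102 to 2.06. CSRP2, a LIM-domain protein bound to actin in smooth muscle and other cells, was at 30.2, 30.5, 43.1, 34.4 and 55.98 CPM in forelimb and 57.4, 64.2, 96.5, 81.5 and 100.3 CPM in hindlimb. Replicates 3 and 5 were high and replicates 1 and 2 low in both limbs. Within numbered pairs its ratio ran only from 1.79 to 2.37. The fitted log2 fold change was 1.06 ± 0.21 (SE) without the replicate number and 1.07 ± 0.08 with it. Under TMM scaling its limbs overlapped.

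LMO7, a LIM-domain protein of cell junctions, was at 329, 332, 324, 308 and 274 CPM in forelimb and 407, 429, 412, 359 and 426 CPM in hindlimb. Forelimb replicate 5 was the lowest forelimb library, and hindlimb replicate 4 the lowest hindlimb library. KANK4, of a family that links talin to the cell cortex, was at 143, 123, 132, 136 and 109 CPM in forelimb and 148, 147, 171, 179 and 163 CPM in hindlimb. The log2 fold changes were 0.39 ± 0.08 and 0.35 ± 0.10 (SE). LMO7 was highest in replicate 2 of both limbs, whereas KANK4 was highest in forelimb replicate 1 and in hindlimb replicate 4.

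FRMD4B, a FERM-domain protein, had means of 55.1 ± 5.73 and 75.3 ± 8.61 CPM, and RHOBTB3 28.4 ± 2.39 and 38.3 ± 5.26 CPM. RHOJ, known from vessel endothelium, had means of 50.6 ± 5.43 and 60.3 ± 2.25 CPM. Endothelial list genes, for comparison, summed to 63.3 to 117 CPM in forelimb and 40.0 to 92.2 CPM in hindlimb. Of 6 tested, 0 were called, against 0.199% of all genes tested called in either direction, so the count says little. RIPOR3 was at 10.49 to 11.99 CPM in forelimb, while hindlimb replicate 1 reached 28.3 CPM and hindlimb replicates 2 to 5 ran from 12.8 to 15.8 CPM. FRS3, an adaptor for FGF receptors, had means of 2.53 ± 0.497 and 4.37 ± 0.679 CPM. NUAK2, a kinase related to AMPK, had means of 16.6 ± 1.89 and 23.3 ± 1.901 CPM. The remaining members here, MOB2, TMEM47, RASSF9 and GKAP1, had ratios of 1.26, 1.38, 1.37 and 1.102.

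PHEX led the 9 enzymes and trafficking proteins. It encodes an endopeptidase of bone and tooth cells whose loss in human and mouse wastes phosphate. It was at 12.998, 3.68, 5.15, 5.82 and 8.003 CPM in forelimb and 24.3, 15.3, 23.9, 13.4 and 15.3 CPM in hindlimb. Replicate 1 was the highest of both limbs, and forelimb replicate 1 lay just below hindlimb replicate 4, the lowest hindlimb library. The log2 fold change was 1.39 ± 0.30 (SE), and 1.59 without both libraries of number 1. A list of 15 cartilage genes summed to 2181 to 3399 CPM in forelimb and 1645 to 3700 CPM in hindlimb. Of the 12 tested, 0 were called, against 0.199% of all genes tested called in either direction, so the count says little. Blocking on the replicate number, the fit called 1 of them, against 0.628% of all genes called higher in hindlimb. This was GDF5, a joint and cartilage growth factor, which averaged 269.5 CPM in forelimb buds and 373 CPM in hindlimb buds. Its limbs overlapped, at 163.7 to 366 CPM in forelimb and 234 to 491.5 CPM in hindlimb.

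ARF1, a GTPase of Golgi traffic, showed the smallest difference. It was at 325, 313, 313, 308 and 316 CPM in forelimb and 341, 332, 329, 349 and 335 CPM in hindlimb. The fitted difference on the log2 scale was 0.12 ± 0.08 (SE). COMMD3, a subunit of an endosomal recycling complex, had means of 70.3 ± 2.4001 and 90.6 ± 5.78 CPM, and the sialyltransferase st6gal2 48.7 ± 6.76 and 70.6 ± 11.2 CPM. FITM2 acts in lipid droplets, MSRB3 reduces oxidised methionine, EXD2 is a nuclease, EXTL2 acts on heparan sulfate chains and ABRAXAS2 belongs to a deubiquitinase complex, and their ratios were 1.39, 1.27, 1.27, 1.153 and 1.098.

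The last 7 members are membrane proteins or proteins of little-known function. ZPLD1, a zona pellucida domain protein, was at 1.598, 0.871, 1.26, 1.58 and 1.096 CPM in forelimb and 6.79, 3.43, 2.87, 3.14 and 6.13 CPM in hindlimb. Hindlimb replicates 1 and 5 stood well above the other 3. The log2 fold change was 1.81 ± 0.31 (SE). TMEM100, a membrane protein of vessel endothelium downstream of BMP signalling in mouse, ran from 13.04 to 20.3 CPM in forelimb and from 21.5 to 33.02 CPM in hindlimb. SUSD5, PROSER2, C5orf24, LMBRD2 and C3orf58 had ratios of 1.59, 1.57, 1.22, 1.19 and 1.14.

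Larger ratios were found at lower CPM, which is not scaled for gene length. Of the 11 members with a ratio of at least 2, 9 had a mean below 20 CPM, NTS and CSRP2 being the others, while 9 of the 10 members with a ratio below 1.2 had a mean of at least 30 CPM, LMBRD2 being the other. A small ratio leaves no overlap only where libraries of a limb are close, so the rule itself links small ratios with small spread. The median over members of the coefficient of variation was 12.4% within forelimb and 12.9% within hindlimb, against 15.6% and 18.4% over the 9450 named genes. The median of the members' mean level was 16.9 CPM and that of the 9450 named genes 33.0 CPM, and 33.3% of members were below 10 CPM against 23.3% of the named genes.

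**Figure D3:**
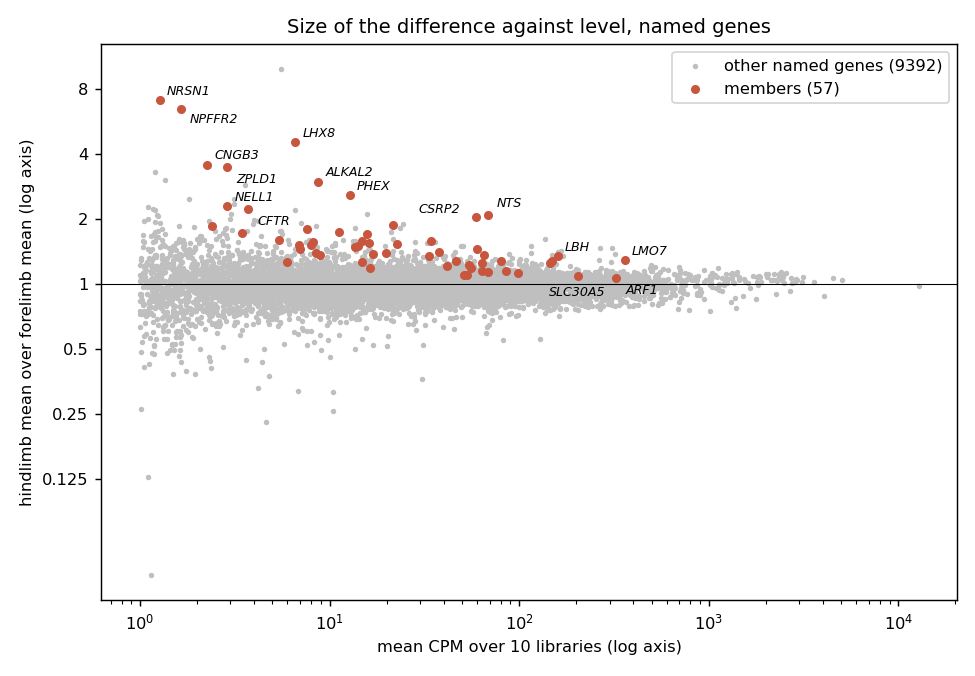
Ratio of hindlimb to forelimb mean CPM against mean CPM over 10 libraries, both on log axes, for the 57 members (red) and 9392 other named genes (grey). MEP1A, high in a single library, is outside the plotted range and left out. Members lie above 1 by the rule, with the largest ratios at the left, and 17 plotted genes that are not members have a ratio of at least 2 but overlapping limbs.

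A ratio of at least 2 was thus not enough to enter the group. The 17 plotted genes and MEP1A reached it with overlapping limbs, so 11 of 29 named genes with such a ratio were members.

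Same-numbered forelimb and hindlimb libraries shared ups and downs. The rule did not use the replicate numbers, but it limited how far a member's values could spread within a limb. Deviations of log2 CPM from the limb mean correlated across all 13433 genes at a mean of at least 1 CPM with Pearson's r of 0.46 to 0.67 for equal numbers and -0.28 to 0.03 for different numbers. Across the 57 members the range was 0.02 to 0.45 for equal numbers and -0.65 to 0.44 for different numbers. The members' values were limited by the rule, so nothing is read from the contrast with all genes. These are correlations across genes, which share libraries and are not independent. Since each limb's mean was subtracted, positive values for equal numbers pull those for different numbers below zero on average. The member CSRP2 followed its number in both limbs, and NELL1 and CFTR did not. The median ratio of hindlimb to forelimb over members was 1.35 to 1.46 in the 5 numbered pairs, and the smallest single ratio of a member in a pair was 1.01. The rule places all these ratios above 1.

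**Figure D4:**
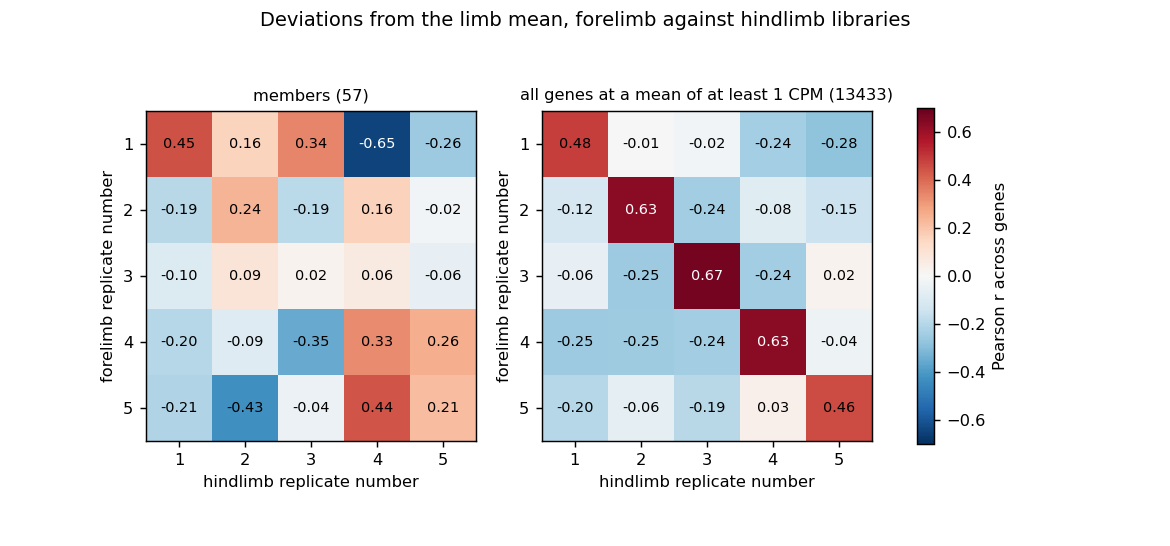
Pearson's r across genes between each forelimb library's (rows) and each hindlimb library's (columns) deviations from its limb mean, for the 57 members (left) and 13433 genes (right). The diagonal of equal numbers runs from 0.46 to 0.67 at right and from 0.02 to 0.45 at left.

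The fit over all 15595 genes, run with edgeR's quasi-likelihood test and a Benjamini-Hochberg adjusted p under 0.05, called 15 genes higher in hindlimb, or 0.0962%. Of the members, which all were tested, 7 were among them, namely NRSN1, NPFFR2, LHX8, ZPLD1, ALKAL2, NTS and DMRT2. Blocking on the replicate number, it called 98 genes higher in hindlimb, or 0.628%, and 31 members, including the same 7. Those called with the block included CSRP2, PHEX, CNGB3, CFTR and GRIA4, whereas NELL1, PAPPA2 and FRS3, with ratios of 2.2996, 1.86 and 1.72, were called in neither fit. Since the members were chosen on this contrast, these counts describe the members and nothing is read from their excess over the background. Leaving out a single library left 3 to 7 called members, of 10 to 17 genes called higher in hindlimb in those fits. Without forelimb replicates 2, 3 and 4 in turn, 4 of 11, 3 of 10 and 4 of 11 genes called higher in hindlimb were members. Without hindlimb replicate 2 these were 3 of 10, and without hindlimb replicate 5 they were 4 of 12.

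In the authors' deposited table the log2 fold change of all 57 members was toward hindlimb. That table compares the limbs in this same series, so the rule all but fixed the direction. At an adjusted p under 0.05 the authors' deposited table held 52 genes higher in hindlimb, 0.347% of the 14978 with an adjusted p, and 30 of these were members. For NRSN1 the authors' deposited table gave a forelimb over hindlimb log2 fold change of -1.06 ± 0.14, and for ALKAL2 -1.04 ± 0.14. Both were smaller in size than the 2.84 and 1.60 fitted here with edgeR, and DESeq2 run here gave 2.85 and 1.60. For LMO7, at higher counts, the authors' value was -0.36 and the edgeR value 0.39. How the authors' fold changes were estimated was not examined, so the sizes may not be like measures.

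Known binding partners of the members, listed after the members were known, were examined in both limbs. Of 27 partners or close relatives with a symbol, 26 had overlapping limbs and 1 did not, where 1.21% of the 9450 named genes had limbs that did not overlap in either direction, so the count says nothing particular of the partners. The ALKAL2 receptors LTK and ALK averaged 23.8 ± 3.496 and 3.26 ± 0.939 CPM in forelimb buds and 21.7 ± 3.22 and 3.45 ± 1.17 CPM in hindlimb buds (SD, n = 5). The CXCL12 receptors CXCR4 and ACKR3 averaged 14.9 ± 2.42 and 52.5 ± 10.52 CPM in forelimb buds and 14.5 ± 2.86 and 44.4 ± 11.2 CPM in hindlimb buds. For GFRA1, the partner receptor RET averaged 26.4 ± 13.5 CPM for forelimb and 13.6 ± 6.14 CPM for hindlimb.

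Several other partners were hardly detected. The neurotensin receptor NTSR1 averaged 0.154 and 0.309 CPM in forelimb and hindlimb buds, while SORT1, the sorting receptor that also binds neurotensin, averaged 267 and 272 CPM. NPFF and NPVF, precursors of peptides that bind NPFFR2 or its relative, were at no more than 0.475 CPM in any library. CNGA3, the alpha subunit that CNGB3 joins in cones, was at no more than 0.179 CPM. Among AMPA receptor subunits, GRIA2 averaged 13.1 ± 4.703 CPM for forelimb and 15.4 ± 3.39 CPM for hindlimb, overlapping where GRIA4 did not. CNTN6, a relative of CNTN5, was the single one of the 27 whose limbs did not overlap, and it lay the other way, averaging 3.24 ± 0.611 CPM in forelimb buds and 1.43 ± 0.795 CPM in hindlimb buds. The limbs barely parted, with a lowest forelimb value of 2.562 CPM and a highest hindlimb value of 2.555 CPM.

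Some members lie near each other in the genome. By symbol, 54 members matched a gene of the RefSeq annotation of Anolis sagrei (assembly rAnoSag1.mat), which was used only for the order of genes. Of 1431 pairs of members, 3 lay within 5 positions of each other among protein-coding genes, or 0.210%, against 0.0654% of pairs among 8663 matched named genes. NTS and RASSF9 were immediate neighbours. PAPPA2 and BRINP2 had 1 gene between them, ASTN1, whose limbs overlapped at 3.18 to 8.13 CPM in forelimb and 4.26 to 8.23 CPM in hindlimb. CSRP2 and SYT1 had 3 genes between them, of which E2F7 and NAV3 were measured and overlapped between the limbs. No member lay within 5 positions of the 7 limb-type genes left out by name. Whether neighbouring genes share reads was not tested, since the strand setting of the counting is not given in the sources used here.

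Calls were also counted in lists of tissues that a bud could hold and in a list of hindlimb-associated genes. Over the 12 lists examined, 109 genes were tested and 7 were called in either direction, against 0.199% of all genes tested, with 6 of them in a list of 17 genes tied to the hindlimb in mouse or chick. In that list, ISL1, HOXC10, HOXC11, PITX1 and TBX4 were called higher in hindlimb and TBX18 higher in forelimb, of 13 tested. NRSN1 and SYT1 were the 2 members that any list held. For muscle, 0 of 12 tested genes were called and the summed level was 813 to 2795 CPM in forelimb and 1379 to 2457 CPM in hindlimb. For the ectoderm, 0 of 11 were called, for blood 0 of 8, for gut, cloaca and coelomic lining 0 of 5, for posterior trunk and tail 0 of 8 and for limb bud mesenchyme 0 of 9. Of these 9, 4 had an unadjusted edgeR p under 0.05, and the block called 1 higher in forelimb, against 0.705% of all genes tested. It was SALL1, at 82.1 to 138.7 CPM in forelimb and 42.0 to 69.6 CPM in hindlimb. Its edgeR adjusted p was 0.000617 with the block and 0.0643 without it. Blood genes summed to 28.3 to 169 CPM in forelimb libraries and 18.5 to 44.2 CPM in hindlimb libraries, so the ranges overlapped. In forelimb replicate 1 the blood genes ALAS2 and SLC4A1 were at 61.5 and 68.9 CPM. No other library of either limb exceeded 9.42 and 10.2 CPM for them. Over the 10 lists with 0 calls by edgeR, which hold 85 tested genes, 9 had an unadjusted p under 0.05 (10.6%, against 3.95% of all 15595 genes), DESeq2 called 1, against 0.54% of the 17978 genes it tested, and edgeR with the block called 4, against 1.33% of all genes tested.

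Of 8 tested kidney and nephric duct genes, 0 were called without the block, against 0.199% of all genes tested called in either direction. With the block 1 was called in each direction, against 0.628% of all genes tested called higher in hindlimb and 0.705% higher in forelimb. WT1, a factor of the kidney and of the lining of the body cavity, averaged 0.558 CPM in forelimb buds and 1.84 CPM in hindlimb buds, with an edgeR adjusted p of 0.0414 with the block and 0.671 without it. Its limbs overlapped at low levels, 0.179 to 1.43 CPM in forelimb and 1.096 to 2.68 CPM in hindlimb. EMX2, a factor of the urogenital ridge and the limb girdle, was higher in forelimb, with an edgeR adjusted p of 0.00554 with the block and 0.354 without it. The part of such tissue in the members' values was not tested.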

How the data were processed

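The 10 libraries hold RNA of limb buds from stage 7 brown anole embryos. Per the labels' protocols, extraction used a mirVana kit and library preparation a TruSeq Stranded mRNA kit, so mostly polyadenylated RNA was read. The tools named in the submitters' processing notes are FastQC, STAR, featureCounts and DESeq2. Versions, genome build, annotation release and strand setting are not given in the sources used here; the identifiers are those of Ensembl gene models of Anolis carolinensis. The authors deposited raw read counts per gene, 1 file a library, and a comparison table. Per the file headers, that table holds a mean normalised count (a signal), log2 fold changes with standard errors, a test statistic (a score) and p-values, with forelimb over hindlimb.

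Counts were divided by library totals (41808148 to 54998469 counts) to give CPM. Fold changes and calls came from edgeR 4.0.16 in R 4.3.3 (quasi-likelihood test, robust dispersion, TMM factors 0.928 to 1.03, default filter at a minimum count of 10, 15595 genes, Benjamini-Hochberg threshold 0.05), checked on simulated data. The simulated counts had a common dispersion for all genes and no effect of replicate number. They could not check the fits where same-numbered libraries are correlated, as here. SE is the fold change over the root of its F statistic. Alternatives were other scalings, no filter, DESeq2 1.42.0, the replicate block and leaving out libraries.

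The members, lists and tests were chosen with earlier results of these data known, and partners and role groups after the members' values were seen. Genes given in full were the 12 members with the largest fitted change and the 8 with the highest hindlimb CPM, with the 5 genes nearest each side of the rule's edge. Equal replicate numbers were taken to pair libraries because each same-numbered pair's deviations correlated at 0.46 or more over 13433 genes. The labels do not state this, and fold changes are without the block unless it is named.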

Additional observations from a re-analysis of the deposited data

Results flagged for a closer look

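For the 57 members and for total counts, single libraries far from the other 4 of their limb were sought by Dixon's criterion, a gap to the nearest library of over 0.71 of the range. It was met in 8 of 116 sets. Chance meets it in about 1 in 20 sets that were not chosen by their values. The rule limited the members' ranges and the sets share libraries, so that rate need not hold here. Forelimb replicate 4 had 54998469 counts, and the next forelimb library 45608067. RIPOR3 was at 28.3 CPM in hindlimb replicate 1, and the next was 15.8 CPM. DNER was at 24.1 CPM in the same library, and the next was 19.2 CPM. RASSF9 was at 8.69 CPM in forelimb replicate 4, its highest, and the next was 7.43 CPM. GFRA1 was at 37.2 CPM in forelimb replicate 4, its lowest, and the next was 40.5 CPM. C5orf24 was at 41.9 CPM in hindlimb replicate 3, its lowest, and the next was 45.5 CPM. LMBRD2 was at 19.2 CPM in hindlimb replicate 2 and SKIL at 97.7 CPM in hindlimb replicate 4, both highest, with 17.6 and 90.5 CPM next.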

How the results depend on the processing

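The median log2 fold change of the members was 0.55 and ran from 0.51 to 0.58 over fits that left out 1 library, moving less than the spread between libraries under each alternative run. Of 323 fitted fold changes of the 19 members given in full, 0 reversed and 1 moved by more than that spread, ARF1 at 0.08 without hindlimb replicate 4. The rule all but fixed the direction in these same libraries, so the lack of reversals carries no weight. Counts moved more. DESeq2 called 54 genes and 30 members higher in hindlimb, the replicate block 98 and 31, and DESeq2 with the block 231 and 44, against 15 and 7. The edgeR shares were 0.628% of 15595 genes with the block and 0.0962% without it. DESeq2 without the block tested 17978 genes and called 0.54% in either direction. For DESeq2 with the block no share of all genes was computed, so its 231 and 44 have no such background. The members were chosen on this contrast, so nothing is read from how many were called. Of the 109 list genes tested, 7 were called in either direction, against 0.199% of all genes tested, and 12 with the block, against 1.33%. With DESeq2 and the block, 20 list genes were called in either direction. The 231 genes above are only those that this fit called higher in hindlimb, so they are no background for the 20. Hindlimb exceeded forelimb within each of the 5 numbered pairs in 726 of the 9450 named genes, where requiring no overlap left 57. Forelimb exceeded hindlimb so in 866 of the 9450. Leaving out 1 library gave 73 to 127 genes by the membership rule, which is easier to meet where fewer libraries must part. The number was 92 without forelimb replicate 3, 86 without 4, 93 without 5, 127 without hindlimb replicate 1 and 112 without 4. Why it differed between the libraries left out was not tested. Leaving out 1 library also gave 3 to 7 called members, 10 to 17 genes called higher in hindlimb and 6 to 7 list genes. Leaving out number 1 in both limbs, chosen after seeing the data, gave 168 genes by the rule. Members with few counts, such as NRSN1 with 8 to 18 counts in forelimb libraries, limit the precision of the largest ratios.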

Other observations

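Genes high in a single library, sought after the values were seen, were almost all in libraries with replicate number 1. In forelimb replicate 1 they included ALAS2 and SLC4A1, genes of red blood cells, at 61.5 and 68.9 CPM, where no other library exceeded 9.42 and 10.2 CPM. CSF3R, a receptor of granulocytes, was at 8.56 CPM there and at no more than 0.475 CPM in the others. In hindlimb replicate 1, ITGA2B, an integrin of platelets and thrombocytes, was at 45.2 CPM against no more than 1.69 CPM elsewhere. MEP1A, a brush border protease of gut and kidney, was at 43.8 CPM in the same library and at no more than 0.238 CPM in the other 9. Its mean ratio between the limbs would place it above each member, and the limbs nevertheless overlapped. No explanation was tested.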
